A study of Mus musculus with 6 samples.

Results

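The Sertoli cell identity genes examined here were Sox9, Sox8, Sox10, Dmrt1, Ptgds, Aard, Cst9, Erbb4 and Etd. These 9 genes were chosen by symbol as SoxE transcription factors, Dmrt1 and early products of Sertoli cells, and all 9 were found among the 24470 rows of the count table. Fetal mouse testes of stage E12.5, just after sex determination, were sequenced as bulk RNA from 3 control and 3 Ppp1r3c cKO (conditional knockout) samples, each a pool of 2 gonad pairs. Both genotypes carried floxed Ppp1r3c alleles (Ppp1r3c f/f), and only the cKO embryos also carried Sf1-Cre, a transgene driven by Nr5a1 (Sf1) sequences that recombines in somatic cells, Sertoli cell progenitors among them. The mice were kept on a C57BL/6 background. Because the controls had no Cre, the presence of Cre and the loss of Ppp1r3c cannot be told apart. Ppp1r3c encodes a subunit that brings protein phosphatase to glycogen and favors its synthesis, and the comparison asks whether Sertoli cell genes depend on it.

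Sertoli cells are the supporting cells of the testis. In the XY gonad SRY switches on Sox9, and SOX9 then maintains its own expression and drives the genes of Sertoli cell differentiation. The SoxE group joins Sox9 with Sox8 and Sox10, which encode closely related HMG-box factors, and Sox8 acts redundantly with Sox9 in the testis. Ptgds encodes the synthase of prostaglandin D2, a signal that reinforces Sox9 expression.

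Libraries held between 16139487 (control replicate 1) and 44145158 counts. Ppp1r3c, the targeted gene, was lower in every cKO sample (23.1 ± 1.19 against 5.34 ± 0.624 CPM, counts scaled to a common library size; SD, n = 3 each), as the labels imply. One library stood apart: cKO replicate 3 held 379 CPM of Xist, the RNA of the inactive X chromosome of XX cells, where the other 5 samples held 0.369 to 1.0 CPM. Its Y-linked genes summed to 220 CPM, against 258 to 277 CPM elsewhere. Fst, a gene of pre-granulosa cells, reached 50.9 CPM there and stayed at or under 2.02 CPM in the others. Fold changes of the identity genes are therefore given with and without cKO replicate 3. In whole testes, fewer Sertoli cells and less RNA per Sertoli cell cannot be told apart.

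All 9 genes were detected in every sample and passed the filter on low counts. They spanned a wide range of levels. To compare genes with each other, CPM were divided by exon length (CPM per kb). In control testes Aard, a gene of unknown biochemical role that is marked by its expression in the early testis, was the most abundant at 197 ± 23.7 CPM per kb (SD, n = 3), above 99.2% of tested genes with a known length. Cst9, a cystatin-related gene also called testatin, followed at 131 ± 22.5, Ptgds at 77.2 ± 11.9 and Sox9 at 39.9 ± 3.92 CPM per kb (SD, n = 3). The control ranges of these 4 neighbors in the order did not overlap.

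Lower in the order, Dmrt1 (16.6 ± 1.96), Etd (12.3 ± 2.74), Sox8 (12.2 ± 1.55) and Sox10 (10.4 ± 0.669 CPM per kb; SD, n = 3) lay close together, and each overlapped its neighbor in control samples. Erbb4 was the least abundant at 0.813 ± 0.179 CPM per kb (SD, n = 3), above 19.8% of tested genes. Sox9 transcripts were thus more abundant per length than those of Sox8 and Sox10 in every control and cKO sample.

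**Figure D1:**
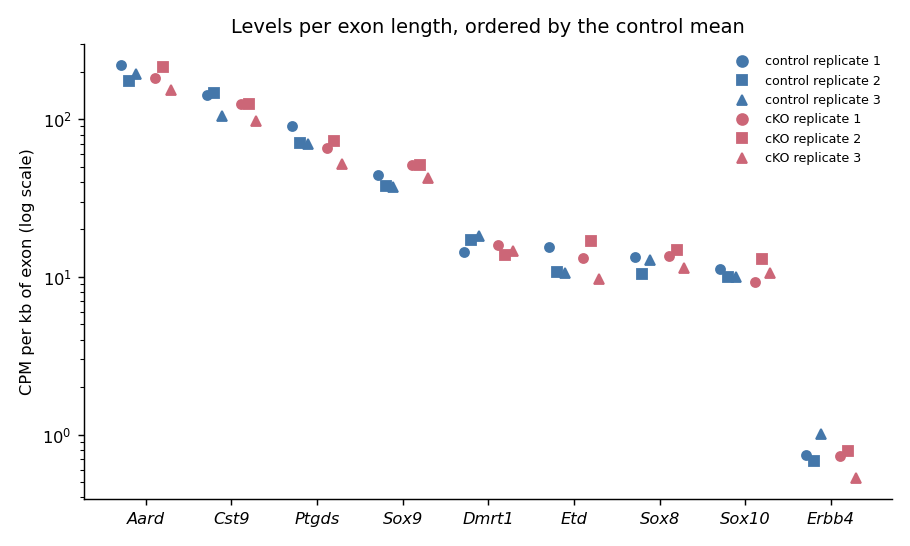
Level of each gene in CPM per kb of exon (log axis) in the 3 control (blue) and 3 cKO (red) samples, 1 point per sample, ordered by the control mean. Aard, Cst9, Ptgds and Sox9 form descending steps, Dmrt1, Etd, Sox8 and Sox10 lie between 9.23 and 18.2 CPM per kb, and Erbb4 lies at 1.01 CPM per kb or below.

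Sequence upstream of the gene start was available for 5 of the 9 genes (Sox8, Ptgds, Cst9, Erbb4 and Etd; RefSeq, GRCm38.p6, the build also named mm10). It is shown for Cst9 and Etd, Sertoli cell products whose upstream stretch overlapped no annotated exon or other gene. A short stretch at Erbb4 that holds a match is shown as well. The sequence before Erbb4 overlapped no annotated exon but fell inside an annotated RefSeq gene span. The 250 bases before each start were searched on both strands. The letters used for SOX proteins were AACAAT. For NR5A1 they were AAGGTCA. For GATA factors AGATAA was used. For a TATA box the search used TATAAA. Capitals mark a match.
Cst9, chr2:148834897-148835146, plus strand: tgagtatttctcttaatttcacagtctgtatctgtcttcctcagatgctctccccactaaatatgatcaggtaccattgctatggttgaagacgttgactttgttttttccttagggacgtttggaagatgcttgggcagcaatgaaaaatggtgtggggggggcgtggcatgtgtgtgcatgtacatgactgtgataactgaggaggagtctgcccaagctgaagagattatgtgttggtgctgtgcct
Etd, chrX:53434668-53434917, plus strand: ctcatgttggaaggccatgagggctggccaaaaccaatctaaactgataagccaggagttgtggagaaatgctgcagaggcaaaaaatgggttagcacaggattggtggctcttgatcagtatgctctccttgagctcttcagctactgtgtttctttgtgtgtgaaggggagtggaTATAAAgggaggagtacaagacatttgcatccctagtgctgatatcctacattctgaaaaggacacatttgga
Erbb4, chr1:69108115-69108144, minus strand: ctctttctttttATTGTTgaccaaccagtg
The SOX letters occurred only before Erbb4 among the 5 genes, read on the opposite strand and starting at -73. The TATA letters occurred only before Etd, also starting at -73. The letters for NR5A1 and GATA factors were found before none of the 5. Only these exact letters were searched, so sites spelled otherwise, for GATA factors among others, were not counted. Of all 32851 upstream windows of this length, 9.42% held the SOX letters, 4.08% the NR5A1 letters, 9.99% the GATA letters and 12.4% the TATA letters. These matches are a description of the sequence, and binding was not measured.

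No identity gene was called different between cKO and control testes. At an FDR (Benjamini-Hochberg adjusted p, edgeR quasi-likelihood test over all 15577 tested genes) below 0.05, 0 of 9 genes passed, where 0.0385% of all tested genes did. DESeq2 also called 0 of 9, where it called 0.779% of genes. At an unadjusted p below 0.05 edgeR had 1 gene, Sox9, where 11.4% of tested genes passed and 5.56% passed in the higher direction. Control and cKO values overlapped for all 9 genes, whereas they did not overlap for 15.6% of tested genes. The median log2 fold change of the 9 genes was -0.094, with 4 higher and 5 lower, beside a median of -0.0034 over all tested genes, and 29.7% of tested genes had an absolute log2 fold change at or above the median absolute value of the 9. Without cKO replicate 3 it was 0.025. The exact permutation test (two-sided) has a smallest possible p of 0.1 at this group size, and over the 9 genes it gave 0.2 to 0.9.

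**Figure D2:**
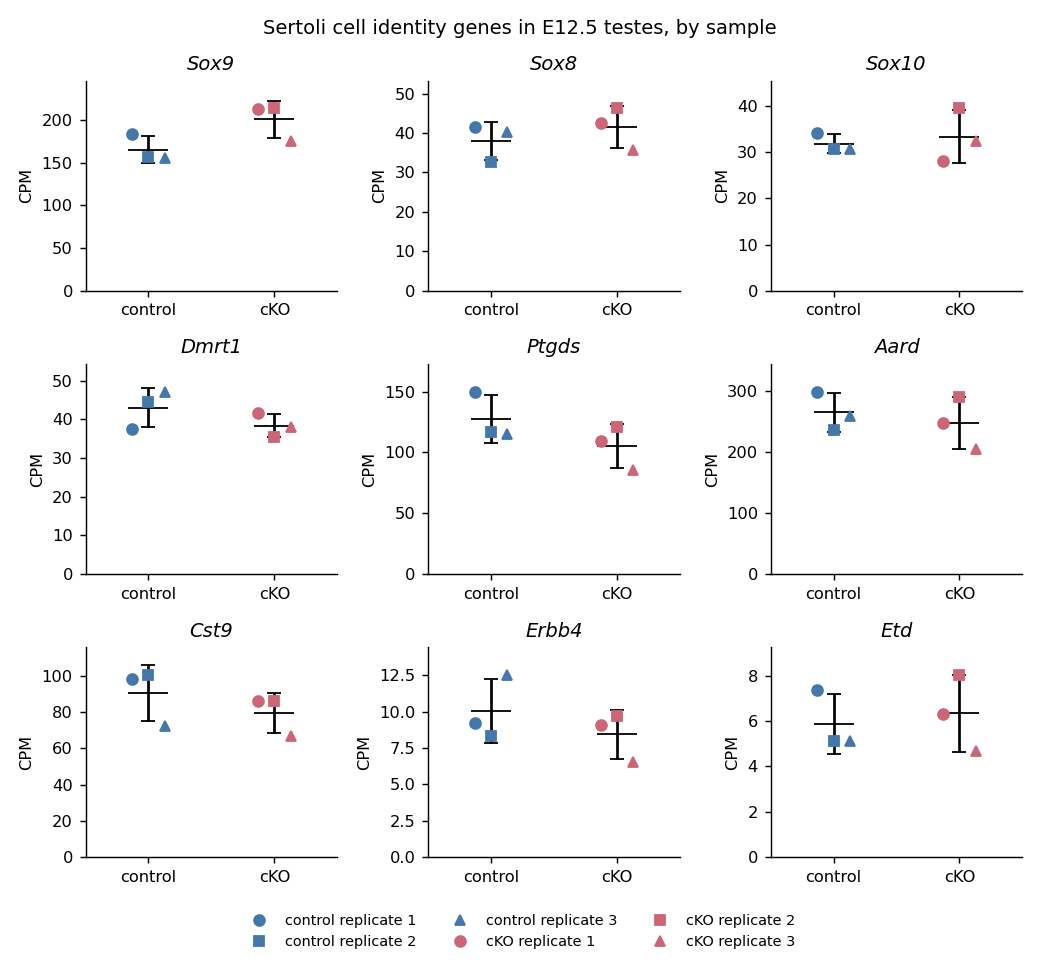
CPM of each gene (y axis from 0, scaled per panel) in the 3 control (blue) and 3 cKO (red) samples, with the mean (long bar) and SD (error bar) of each group. The groups overlap in every panel, and cKO replicate 3 (red triangle) is the lowest of the 6 samples for Ptgds, Aard, Cst9, Erbb4 and Etd.

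Sox9 lies on chromosome 11 (mm10, 112782210 to 112787757, plus strand). Its level was 184, 157 and 155 CPM in control replicates 1 to 3 and 213, 213 and 175 CPM in the cKO replicates. The highest control sample, replicate 1, exceeded the lowest cKO sample, replicate 3, and otherwise cKO samples were above control samples. Control testes averaged 165 ± 16.2 and cKO testes 201 ± 21.9 CPM (SD, n = 3 each). Expressed as log2 fold change this was 0.28, with a 95% interval of 0.077 to 0.49 before any adjustment over genes. The edgeR FDR was 0.377, and 16.3% of tested genes had a log2 fold change at least as large in either direction. By DESeq2 the FDR on all 6 samples was 0.132. Without cKO replicate 3 the log2 fold change was 0.37 (edgeR FDR 0.633, DESeq2 FDR 0.0571). DESeq2 called Sox9 only when control replicate 1 was left out (log2 fold change 0.37, DESeq2 FDR 0.0223).

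Sox8 and Sox10, the other SoxE genes, differed by less than the spread between samples. Sox8 (chromosome 17, 25565893 to 25570686, minus strand) was at 41.5, 32.6 and 40.1 CPM in control and 42.6, 46.2 and 35.7 CPM in cKO replicates. Control replicate 2 was the lowest of the 6 samples and cKO replicate 2 the highest. This gave a log2 fold change of 0.13 (95% interval -0.13 to 0.39, edgeR FDR 0.689), and 0.23 without cKO replicate 3.

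Sox10 (chromosome 15, 79154913 to 79164490, minus strand), best known from neural crest and its glia, was at 34.2, 30.7 and 30.6 CPM in control and 28.2, 39.5 and 32.5 CPM in cKO replicates. The cKO samples enclosed the control samples, with replicate 1 below and replicate 2 above all of them. Between groups the log2 fold change was 0.073 (95% interval -0.19 to 0.33, edgeR FDR 0.842). Dropping cKO replicate 3 gave 0.093, and dropping cKO replicate 2 turned it to -0.065. Of 10 neural crest and glia markers, 6 passed the filter, and Foxd3, an early neural crest factor, was at 0.0453 CPM or less in every sample. The summed markers ranged from 181 to 183 CPM in control and 172 to 209.8 CPM in cKO samples, with Ngfr, the most abundant of them per length, at 145 to 185 CPM. Their part in the Sox10 counts was not tested.

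Dmrt1 (chromosome 19, 25505706 to 25604328, plus strand) encodes a DM-domain transcription factor that maintains the male fate of Sertoli cells and is also expressed in germ cells. Its level was 37.4, 44.6 and 47.1 CPM in control and 41.6, 35.5 and 38.0 CPM in cKO replicates. Control replicates 2 and 3 were above all cKO samples, and control replicate 1 lay among them. Dmrt1 had a log2 fold change of -0.17 (95% interval -0.39 to 0.043, edgeR FDR 0.516), and -0.17 without cKO replicate 3. Summed germ cell markers followed a similar order, at 487, 745 and 784 CPM in control and 506, 247 and 379.6 CPM in cKO replicates, with control replicate 1 and cKO replicate 2 lowest in their groups for both. The part of germ cells in the Dmrt1 counts was not tested.

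The Sertoli cell products Ptgds, Cst9 and Aard had lower means in cKO testes, and none passed the test. Ptgds (chromosome 2, 25466712 to 25469749, minus strand) was at 149.9, 117 and 115 CPM in control and 109, 121 and 85.5 CPM in cKO replicates. The cKO samples spread from below all controls to above 2 of them. Ptgds had a log2 fold change of -0.27 (95% interval -0.57 to 0.031, edgeR FDR 0.472), and -0.14 without cKO replicate 3.

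Cst9 (chromosome 2, 148835147 to 148838737, plus strand) was at 97.9, 100.4 and 72.4 CPM in control and 86.0, 85.7 and 66.9 CPM in cKO replicates. Control replicate 3 was lower than cKO replicates 1 and 2. The log2 fold change was -0.18 (95% interval -0.48 to 0.12, edgeR FDR 0.631), and -0.068 without cKO replicate 3. Cst9 sits in a cluster of cystatin genes, and reads that match more than 1 of them would make its count uncertain.

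Aard (chromosome 15, 52040107 to 52045722, plus strand) was at 299, 236 and 259.9 CPM in control and 248, 291 and 205 CPM in cKO replicates. The values of the groups interleaved. Aard had a log2 fold change of -0.094 (95% interval -0.37 to 0.18, edgeR FDR 0.799). Its sign was not stable, at 0.00017 once control replicate 1 was left out and 0.025 once cKO replicate 3 was.

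Erbb4 and Etd had the fewest counts and the widest spread. Erbb4 (chromosome 1, 68032186 to 69108059, minus strand), a receptor tyrosine kinase for neuregulins, held 150 to 514 counts per library. It was at 9.23, 8.35 and 12.54 CPM in control and 9.10, 9.73 and 6.53 CPM in cKO replicates. Control replicate 3 was the highest sample and cKO replicate 3 the lowest, with the other 4 close together. The log2 fold change was -0.25 (95% interval -0.68 to 0.18, edgeR FDR 0.637), and -0.098 without cKO replicate 3.

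Etd, named for embryonic testis differentiation, is on the X chromosome (53434918 to 53443576, plus strand) and held 120 to 289 counts per library. It was at 7.39, 5.14 and 5.10 CPM in control and 6.31, 8.03 and 4.66 CPM in cKO replicates. Etd had a log2 fold change of 0.13 (95% interval -0.37 to 0.64, edgeR FDR 0.858). Leaving out cKO replicate 3 gave 0.31 and leaving out cKO replicate 2 gave -0.073. The values therefore interleaved and gave no direction.

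**Figure D3:**
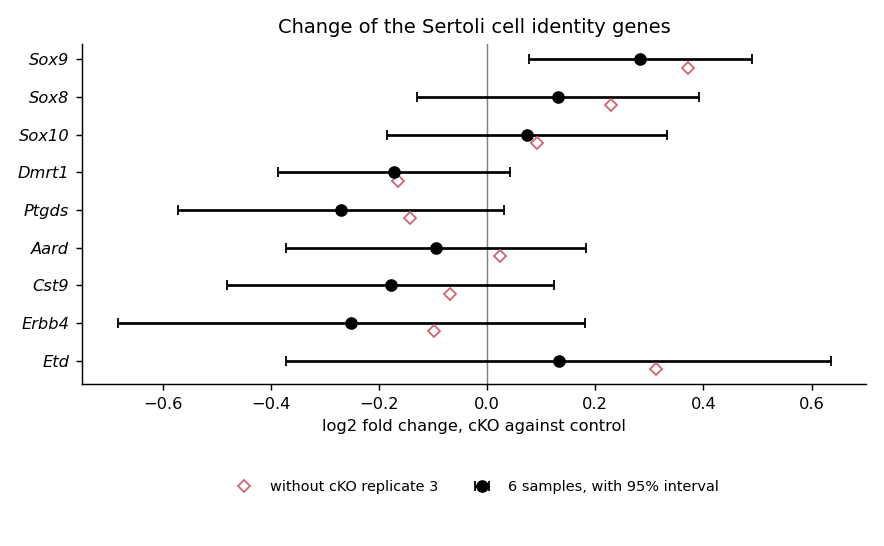
Log2 fold change of each gene in cKO against control testes from all 6 samples (black, edgeR, with the 95% interval before adjustment over genes) and without cKO replicate 3 (open diamonds). The interval of Sox9 (0.077 to 0.49) is the only one that leaves out 0, and no gene passed the adjusted threshold.

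The width of the 95% intervals shows how closely each change was measured. For Sox9 the interval ran from 5.46% to 40.5% higher. For Dmrt1 it ran from -23.6% to 2.99%, for Ptgds from -32.7% to 2.14%, and for Aard from -22.7% to 13.5%. Etd and Erbb4 were the least certain, with intervals of -22.7% to 55.3% and -37.7% to 13.4%. A missed threshold does not show that the genes were equal. The coefficient of variation between replicates was 6.42% (Sox10) to 22.3% (Etd) in control and 7.93% (Dmrt1) to 26.7% (Etd) in cKO samples. Counting error in the shallowest library was 1.43% for Aard and 9.13% for Etd, below the replicate spread of each gene in either group.

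The samples differed from each other across several identity genes together. Control replicate 1 was the highest control sample for 6 of 9 genes, cKO replicate 2 the highest cKO sample for 7, and cKO replicate 3 the lowest cKO sample for 7. Summed over the 9 genes, control replicates 1 to 3 were at 861, 731 and 738 CPM and cKO replicates at 784, 849 and 650.3 CPM. Relative to the control mean, cKO replicate 3 was thus at 83.7%, with Sox9 at 106% but Erbb4 at 65.1%, Ptgds at 67.2% and Cst9 at 74.2%. In the same sample the 10 pre-granulosa markers summed to 429.7 CPM, against 178 to 201 CPM in the other 5 samples, and Foxl2 was at 7.56 CPM, against 0.431 to 1.22 CPM. In this single library several identity genes were thus lower while these markers were higher, and any link between them was not tested.

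Ratios between identity genes within a sample do not depend on library scaling, and were examined after the values had been seen. Sox9 was higher relative to Ptgds in every cKO sample: the log2 ratio was 0.29, 0.42 and 0.43 in control and 0.97, 0.82 and 1.03 in cKO replicates. Relative to Aard it was -0.70, -0.59 and -0.75 in control and -0.22, -0.45 and -0.23 in cKO replicates. Relative to Cst9 it was 0.91, 0.64 and 1.10 in control and 1.31, 1.31 and 1.39 in cKO replicates. The groups did not overlap for these ratios, nor for Sox9 against Erbb4 or, by a narrow margin, Sox10. Sox8 likewise did not overlap against Ptgds, Aard and Erbb4, where it was relatively higher in cKO samples. Ptgds did not overlap against Etd or, by a narrow margin, Aard, and against both it was relatively lower in cKO samples.

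In all, 10 of 36 ratios between identity genes (27.8%) did not overlap, where 15.8% of the ratios between all tested genes did not. Of the 8 ratios with Sox9, 5 were among them, and 4 of the 10 involved Ptgds, so the 10 are not independent. Without cKO replicate 3 there were 12 (33.3%), where all gene pairs gave 23.2%. The pairs were read as a description and no test was made of them.

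**Figure D4:**
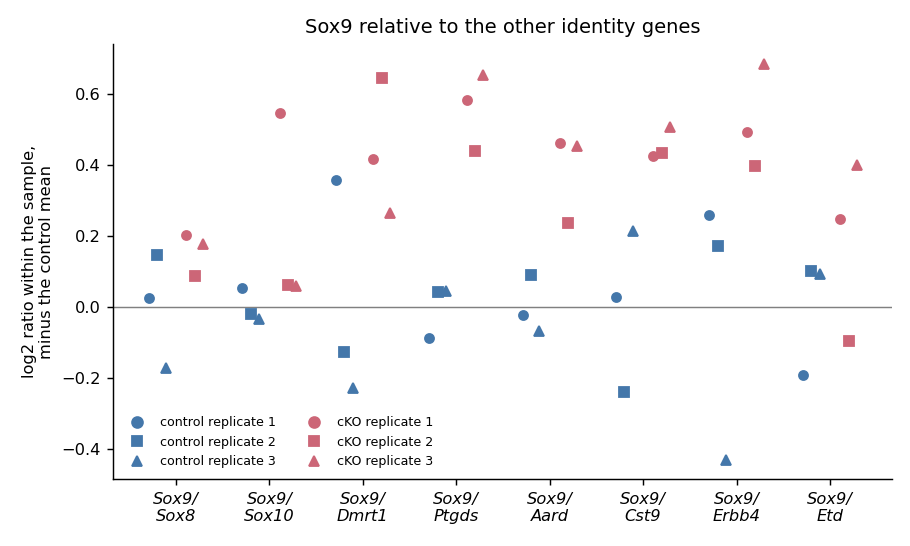
Log2 ratio of Sox9 to each other identity gene within a sample, minus the control mean of that ratio, for the 3 control (blue) and 3 cKO (red) samples. All cKO points lie above all control points for Sox10, Ptgds, Aard, Cst9 and Erbb4, and the groups overlap for Sox8, Dmrt1 and Etd.

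By profile over the 6 samples, the genes nearest to Sox9 were Cited2, Nipal1 and H60b, with root mean square differences of 0.044, 0.044 and 0.059 in centered log2 CPM, beside a median of 0.22 over 13792 genes. Cited2 was at 90.2, 73.7 and 75.8 CPM in control and 96.7, 101 and 86.7 CPM in cKO replicates, with the same high control replicate 1 and low cKO replicate 3. Etd varied most among the 9 genes, and the genes nearest to it were Kazald1, Flvcr2 and Tg (0.088, 0.096 and 0.096, beside a median of 0.31).

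Other genes of the Sertoli cell pathway were read from lists. The testis-determining and upstream genes, which act before or beside Sox9, were mostly higher on average: 12 of 15 were higher and 3 lower, with a median log2 fold change of 0.19 (0.16 without cKO replicate 3). At an unadjusted p below 0.05 edgeR had 8 of the 15, 6 higher and 2 lower, beside 11.4% of all tested genes. Only Nr5a1, which encodes SF1, was called (372, 359 and 311 CPM in control and 512, 593 and 546 CPM in cKO replicates). Its log2 fold change was 0.66 ± 0.0801 (SE; edgeR FDR 0.0401). Leaving out cKO replicate 1 kept the edgeR call, and leaving out any of the other 5 samples lost it (edgeR FDR 0.0731 to 0.212), with a log2 fold change of 0.67 when cKO replicate 3 was dropped. The edgeR call was also lost with a block for replicate number (edgeR FDR 0.267) and with a stricter filter on low counts (edgeR FDR 0.0503). DESeq2 called Nr5a1 on all 6 samples (DESeq2 FDR 4.98e-12) and with each single sample left out (DESeq2 FDR 1.39e-07 or lower). On all 6 samples limma-voom called it too (limma-voom FDR 0.0312). The Cre transgene is driven by sequences of this gene, and their part in its counts was not tested. DESeq2 also called Wt1 (0.28, or 0.20 by edgeR without cKO replicate 3; DESeq2 FDR 0.0459), named here after its values were seen, which edgeR did not call.

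The 18 other Sertoli cell genes did not move together. By edgeR and DESeq2 0 of 18 were called, while edgeR had 4 at an unadjusted p below 0.05, 2 higher and 2 lower, where 11.4% of all tested genes passed. Their median log2 fold change was 0.029, with 10 higher and 8 lower. The gene of lowest p was Vnn1, which encodes a pantetheinase: it was at 30.8, 28.5 and 30.2 CPM in control and 23.2, 25.0 and 21.5 CPM in cKO replicates, below every control sample, with a log2 fold change of -0.36 (edgeR FDR 0.377; -0.31 without cKO replicate 3). The most abundant per length was Amh, the hormone that regresses the Müllerian duct, at 894, 631 and 771 CPM in control and 665, 919.8 and 588 CPM in cKO replicates. Amh thus shared the order of the identity genes, with control replicate 1 and cKO replicate 2 highest and cKO replicate 3 lowest in their groups.

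**Figure D5:**
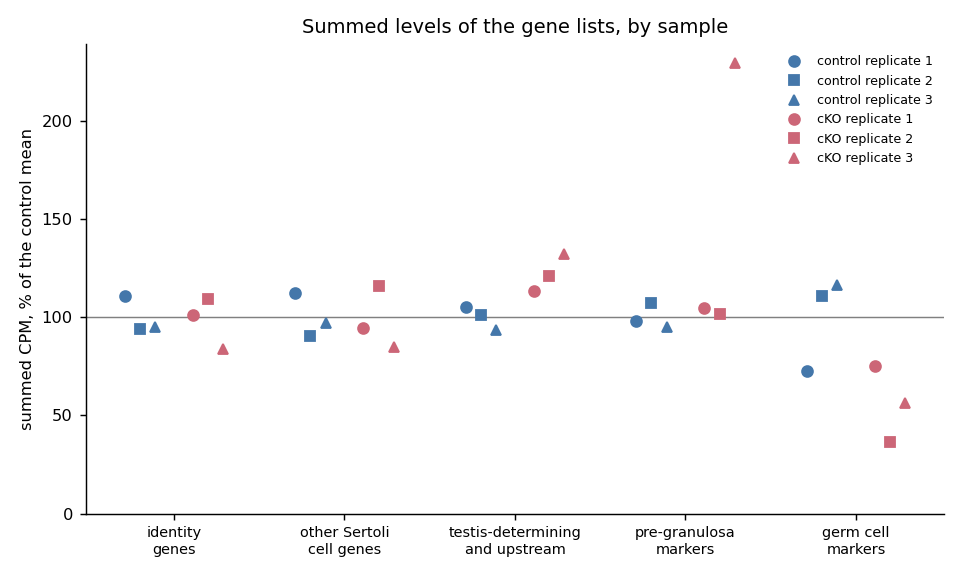
Summed CPM of each gene list as a percentage of the control mean (y axis from 0), 1 point per sample. The identity genes lie between 83.7% and 111%, the upstream genes lie between 114% and 132% in cKO samples, pre-granulosa markers reach 229% in cKO replicate 3 only, and germ cell markers lie between 36.7% and 75.2% in cKO samples and at 72.5% in control replicate 1.

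Around Ptgds, 6 of 8 genes of prostaglandin D2 synthesis, transport, breakdown and reception were tested, and 0 were called by edgeR or DESeq2, with 1 at an unadjusted p below 0.05. The receptor genes Ptgdr and Ptgdr2 did not pass the filter and were at 0.181 CPM or less in every sample. Ptgs2, which makes the precursor of prostaglandins, had the lowest p (edgeR FDR 0.400). Its level was 17.4 CPM for cKO replicate 1 alone, with no other sample above 0.905 CPM, so its difference rests on that library. Hpgd, which inactivates prostaglandins, was the most abundant per length at 35.1 to 40.4 CPM.

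Around Erbb4, 9 of 13 ErbB receptor and ligand genes were tested, and 0 were called by edgeR or DESeq2, with 2 at an unadjusted p below 0.05. Tgfa, a ligand of EGFR, had the lowest p, at 11.8, 11.6 and 12.2 CPM in control and 14.6, 15.5 and 18.6 CPM in cKO replicates (log2 fold change 0.45, edgeR FDR 0.377; 0.34 without cKO replicate 3). Erbb2, the coreceptor of Erbb4, was the most abundant per length at 121 to 153 CPM. The neuregulin genes Nrg3 and Nrg4 did not pass the filter.

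The gene families of the remaining identity genes held no call by edgeR or DESeq2. Of 13 tested Sox genes outside the SoxE group, 8 were higher and 5 lower, with 6 at an unadjusted p below 0.05, where 11.4% of all tested genes passed. Sox15 had the lowest p (log2 fold change -0.67, edgeR FDR 0.377) and Sox12 the highest level per length. Of 5 tested Dmrt genes other than Dmrt1, 3 were higher and 1 passed an unadjusted p below 0.05, Dmrta1 (0.71, edgeR FDR 0.382; 0.35 without cKO replicate 3), which was highest in cKO replicate 3 at 13.8 CPM, against 4.93 to 8.23 CPM elsewhere. Of 6 tested cystatins other than Cst9, 5 were lower and 0 had an unadjusted p below 0.05. Cst11 had the lowest p among them (0.31, edgeR FDR 0.591), and Cst3 was the most abundant per length.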

How the data were processed

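The authors prepared stranded mRNA libraries (TruSeq), aligned read pairs to mm10 with STAR (version 2.5) and obtained strand-specific gene counts from featureCounts (Subread 1.5.0-p1). The deposited values are raw counts per gene, with no normalization. Groups and replicate numbers came from sample titles. Nothing states whether pooled pairs came from separate litters, so p-values measure the spread between these pools.

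Counts were tested with edgeR (version 4.0.16, R 4.3.3): filterByExpr (minimum count 10), TMM factors and the quasi-likelihood F-test without covariates, with p-values adjusted over all 15577 tested genes. CPM used TMM-scaled library sizes, and log2 CPM a prior count of 2. Exon lengths were unions of GENCODE M21 exons (GRCm38), found for 97.7% of tested genes. The fits were tested on simulated data. No symbol of a list was absent from the table, and some list genes are not reported here by name.

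Alternatives were DESeq2 (version 1.42.0), limma-voom (limma 3.58.1), RLE factors, no filter, a stricter filter (3 or more samples reaching 1 CPM), the replicate block and each sample left out. DESeq2 without single samples, thinned libraries and the ratios were chosen after seeing the data. The genes and lists were chosen with earlier results of these data known. Named were the 9 genes, Ppp1r3c, the sex check, of each list the called genes or those of lowest p and highest level, the nearest profiles, and markers of cell type presence. Same-numbered samples did not deviate together, so numbers were not taken as pairs.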

Additional observations from a re-analysis of the deposited data

How the results depend on the processing

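edgeR called 0 of the 9 identity genes in every setting run, as did DESeq2 and limma-voom on all 6 samples. DESeq2 without single samples called 0 or 1, the 1 being Sox9 without control replicate 1. Its fit lacking control replicate 3 adjusted p-values for just 1604 genes, of which Sox9 and Aard were the 2 identity genes covered. Of 164 alternative fold changes of the identity genes, 155 kept their sign and side of the threshold and 8 turned sign. Aard was 0.00017 (edgeR) and 0.0046 (DESeq2) without control replicate 1, and 0.025 and 0.026 without cKO replicate 3. Without cKO replicate 2, Sox10 was -0.065 and -0.064, and Etd -0.073 and -0.075, by edgeR and DESeq2. Without single samples edgeR gave up to 0.18 for Sox10 and 0.31 for Etd, down to -0.22 for Aard, and -0.34 (without cKO replicate 1) to 5.38 for Ptgs2. Ptgs2 turned sign without cKO replicate 1, the library on which its difference rests. Why single samples differed was not tested.

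Over all genes, edgeR called 5 higher and 1 lower, DESeq2 57 and 54. The number called lower was 2 with limma-voom and with no filter, and the number called higher was 3 with the stricter filter. Without single samples it ranged from 1 to 5 higher and 1 to 3 lower by edgeR. DESeq2 varied more: dropping control replicate 1, 2 or 3 left 100, 48 or 31 genes called higher with 213, 4 or 17 called lower, and dropping cKO replicate 1, 2 or 3 left 89, 64 or 9 called higher with 211, 18 or 5 called lower. A block for replicate number left 2 genes called higher, among them no identity gene. Deviations of same-numbered samples correlated at -0.20, -0.27 and -0.13. The median of the other Sertoli cell genes turned to -0.078 and -0.071 without control replicate 2, -0.0044 without control replicate 3, and -0.076 and -0.078 without cKO replicate 2, and was at most 0.11. Ratios of identity genes that did not overlap numbered 12 to 15 without single samples, where all gene pairs gave 23.2% to 32.6%. Counting error was largest for Etd and Erbb4. With libraries thinned to the smallest total, Dmrt1 went from -0.17 to -0.094 and Sox10 from 0.073 to 0.14, and the other 7 identity genes moved less.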

Other observations

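The marker lists of other cells held no edgeR call. All 10 pre-granulosa markers were higher in cKO testes (median log2 fold change 0.79), but 0.14 without cKO replicate 3, and Runx1 had the lowest p (0.89, edgeR FDR 0.377; 0.61 without cKO replicate 3). Rspo1 was the most abundant of them per length, at 23.1 to 27.6 CPM in 5 samples and 39.7 CPM in cKO replicate 3. All 11 tested germ cell markers were lower (median -0.84, and -0.85 without cKO replicate 3), and 10 of them had an unadjusted p below 0.05, where 11.4% of all tested genes did. Dppa3, expressed in early germ cells, had the lowest p and the highest level per length, at 74.7, 105 and 83.4 CPM in control and 51.6, 20.4 and 39.2 CPM in cKO replicates (log2 fold change -1.24, edgeR FDR 0.377). DESeq2 called Dnd1 and Mael of this list, named after their values were seen.

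Among the 6 tested neural crest and glia markers, 3 were higher, and Ednrb had the lowest p (0.53, edgeR FDR 0.410; 0.37 without cKO replicate 3). Of 4 tested mesonephros markers 3 were higher, and Pax8 had the lowest p (0.52, edgeR FDR 0.377; 0.32 without cKO replicate 3). Medians were -0.32 for 6 fetal Leydig markers (-0.085 without cKO replicate 3), -0.034 for 6 interstitial and -0.0078 for 6 endothelial markers (0.0044 and 0.0079 without cKO replicate 3), -0.061 for 6 macrophage and -0.067 for 6 erythroid markers, and 0.14 for 6 dissociation stress genes (0.28 without cKO replicate 3). With 3 samples a group, no sample was tested as an outlier.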
